A study of Mus musculus with 8 samples.

Results

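Wide accessible regions with several summits are stretches of open chromatin in which the peak caller drew 1 broad peak and marked more than 1 local maximum inside it. A region was taken when, in each of 2 ATAC-seq replicates, a peak inside it was at least 400 bp wide and carried at least 2 summits. By this rule 1314 of the 44365 regions with a peak in both replicates were chosen, 2.96% of them. The width and the number of summits therefore chose the regions, and these values are given below as a description without a test. The place of the regions, the genes at them and the sequence under them were not used by the rule.

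The study concerns mouse dendritic cells, which sense microbial nucleic acids and present antigen, and it asks, by its title, where the transcription factors IRF3, IRF5 and IRF9 bind at enhancers. Of its 8 samples, 6 are ChIP-seq libraries after 90 min with poly(I:C) (IRF3), class B CpG oligonucleotide (IRF5) or interferon-beta (IRF9), in 2 samples each, and they were not analysed here. The other 2 are ATAC-seq libraries of untreated CD8-positive dendritic cells, the only group here. No genotype, strain or age is given, one label calls the cells a cell line and another says spleen, and nothing says whether the replicates were separate cultures. Of 28 genes that mark cDC1, the conventional dendritic cells that carry CD8 in mouse spleen, 19 had a shared region within 1 kb of an end. Over all coding genes the count was 10348 of 21631, and of 20 housekeeping genes 17 had one. The counts were 3 of 16 T cell, 4 of 14 B cell, 2 of 12 NK cell and 2 of 15 neutrophil markers. They were 7 of 16 cDC2, 6 of 16 plasmacytoid dendritic cell and 12 of 20 macrophage and monocyte markers. The cDC1 share was thus only moderately above that of all coding genes and near that of macrophage and monocyte markers. Each library has its own peak list, with 50950 peaks in replicate 1 and 58319 in replicate 2. The local background met most often was 0.676 reads in replicate 1 and, with 1.28, higher by 1.89 times in replicate 2, so replicate 2 was the deeper library if both were processed alike.

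ATAC-seq marks DNA that a transposase can reach, so DNA free of nucleosomes gives peaks and DNA wrapped in a nucleosome gives fewer cuts. Active promoters keep a nucleosome-free stretch just before the transcription start, and promoters of broadly used genes often lie in CpG islands, which are rich in G, C and the CG dinucleotide and hold GC boxes, the sites of Sp1-like factors. The CCAAT box, bound by the NF-Y complex, is another common promoter element. The interferon-stimulated response element (ISRE) is the site through which IRF proteins act. Enhancers are the other main class of open sites and lie inside or between genes.

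The promoters of 7 immune genes under wide regions show the range of sequence found there. They are the 250 bases before the RefSeq start of each gene (build GRCm38.p6), written 5′ to 3′ along the gene. Capitals mark GC boxes, the letters GGGCGG, wherever they occur on either strand of the stretch. They also mark CCAAT boxes on either strand of it in the same way. The third element in capitals is the core of the ISRE, which is made of a pair of GAAA blocks with a gap of 2 free bases.
Rel: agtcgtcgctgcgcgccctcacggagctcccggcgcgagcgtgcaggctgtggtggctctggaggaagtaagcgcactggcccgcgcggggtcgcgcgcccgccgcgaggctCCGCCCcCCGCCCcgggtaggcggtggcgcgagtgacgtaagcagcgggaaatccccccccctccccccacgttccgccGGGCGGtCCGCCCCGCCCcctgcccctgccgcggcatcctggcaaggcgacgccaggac
Stat3: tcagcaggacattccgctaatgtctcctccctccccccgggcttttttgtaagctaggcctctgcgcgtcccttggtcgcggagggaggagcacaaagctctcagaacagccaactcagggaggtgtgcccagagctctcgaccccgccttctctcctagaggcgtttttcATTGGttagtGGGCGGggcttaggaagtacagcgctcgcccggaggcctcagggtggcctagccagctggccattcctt
Ifngr1: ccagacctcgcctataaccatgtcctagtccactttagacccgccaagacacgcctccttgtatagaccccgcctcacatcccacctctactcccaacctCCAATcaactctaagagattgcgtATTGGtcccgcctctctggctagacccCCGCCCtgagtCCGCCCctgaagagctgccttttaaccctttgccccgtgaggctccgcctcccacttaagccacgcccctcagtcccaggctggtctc
Irak4: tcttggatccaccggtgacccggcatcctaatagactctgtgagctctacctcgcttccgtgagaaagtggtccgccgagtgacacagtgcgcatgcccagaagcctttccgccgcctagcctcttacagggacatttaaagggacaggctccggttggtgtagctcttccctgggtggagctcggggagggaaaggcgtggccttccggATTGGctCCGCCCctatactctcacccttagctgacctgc
Bst2: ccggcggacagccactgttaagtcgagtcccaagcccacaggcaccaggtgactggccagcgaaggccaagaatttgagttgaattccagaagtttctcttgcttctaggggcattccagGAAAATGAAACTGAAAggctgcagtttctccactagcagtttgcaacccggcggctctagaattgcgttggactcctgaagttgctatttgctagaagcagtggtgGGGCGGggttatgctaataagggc
Clec12a: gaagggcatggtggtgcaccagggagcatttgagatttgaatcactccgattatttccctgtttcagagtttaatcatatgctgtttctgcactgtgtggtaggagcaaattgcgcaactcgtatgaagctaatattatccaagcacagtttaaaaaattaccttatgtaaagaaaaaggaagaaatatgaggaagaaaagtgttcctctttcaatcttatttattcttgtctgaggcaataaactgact
Itgax: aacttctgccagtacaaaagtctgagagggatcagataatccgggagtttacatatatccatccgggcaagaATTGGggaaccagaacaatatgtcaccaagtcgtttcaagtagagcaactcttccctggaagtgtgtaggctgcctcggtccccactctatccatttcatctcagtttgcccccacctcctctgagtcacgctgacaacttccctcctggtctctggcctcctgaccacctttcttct

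Rel (chr11:23770970-23771219, minus strand) encodes the NF-kB subunit c-Rel, and its stretch held 5 GC boxes and 37 CG dinucleotides at 77.6% GC. Stat3 (chr11:100939541-100939790, minus strand), a cytokine-activated transcription factor, had 1 GC box and 1 CCAAT box. Ifngr1 (chr10:19591699-19591948, plus strand), a chain of the interferon-gamma receptor, had 2 of each. Irak4 (chr15:94543410-94543659, plus strand), the kinase next to the adaptor Myd88, had 1 of each. Bst2 (chr8:71537473-71537722, minus strand), the interferon-inducible protein tetherin that holds budding virus at the cell surface, held 2 overlapping ISRE cores and 1 GC box. Clec12a (chr6:129349994-129350243, plus strand), an inhibitory lectin of myeloid cells, held none of the 3 motifs at 37.2% GC with 3 CG dinucleotides. Itgax (chr7:128129300-128129549, plus strand), the integrin chain CD11c by which dendritic cells are recognised, had 1 CCAAT box, no GC box and 5 CG dinucleotides.

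At each of these genes the highest summit lay on the same side of the start in both replicates. At Itgax the peak was 749 bp wide in replicate 1 and 772 bp in replicate 2, with 3 summits in each. These lay 585, 293 and 9 bp before the start in replicate 1 and 578, 285 and 47 bp before it in replicate 2. The summit farthest upstream was the highest in both, with fold enrichments over local background of 7.86 and 7.19. At Bst2 the highest summit lay 54 bp before the start in replicate 1 (fold 7.75) and 40 bp before it in replicate 2 (fold 8.98), and a second summit lay 292 and 249 bp before it. At Stat3 the highest summit lay 46 bp past the start in replicate 1 and 30 bp past it in replicate 2, at a fold of 11.4 in each, with weaker summits upstream. At Clec12a the summits lay 208 and 15 bp before the start in replicate 1 and 223 and 26 bp before it in replicate 2. Irak4 had its highest summit 142 bp before the start in replicate 1 and 60 bp before it in replicate 2, with another 189 and 221 bp past it. At Rel the highest summit lay 449 bp before the start in replicate 1 and 423 bp before it in replicate 2. At Ifngr1 it lay 395 and 388 bp before the start. The highest summit thus lay close to the start at Bst2 and Stat3 and well upstream at Itgax, Rel and Ifngr1. At Itgax, Rel and Ifngr1 it lay upstream of the printed stretch, and at Stat3 past its end. The sequence shown for these genes is therefore not that under the highest summit.

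Wide regions with several summits sat mainly at gene ends, with 834 of the 1311 on the autosomes and X (63.6%, 95% exact binomial interval 60.9 to 66.2) centred within 1 kb of an end of a coding gene. Another 253 (19.3%) lay farther inside a coding gene and 224 (17.1%) between genes. Among the other 43017 shared regions, 27.2% (26.8 to 27.6) were at an end, 40.0% inside and 32.8% between genes. The share at ends was higher for the wide regions on each of the 20 chromosomes compared. These intervals cover counting error only, and regions of the same 2 libraries are not replicates. Both conditions of the rule went with place when taken alone. Of 274 shared regions that were wide but did not have several summits in both replicates, 63.5% lay at an end. Of 2456 with several summits that were not wide, 54.1% did. Of the 40284 with neither, 25.3% did, and 3 more met the conditions only in different peaks.

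**Figure D1:**
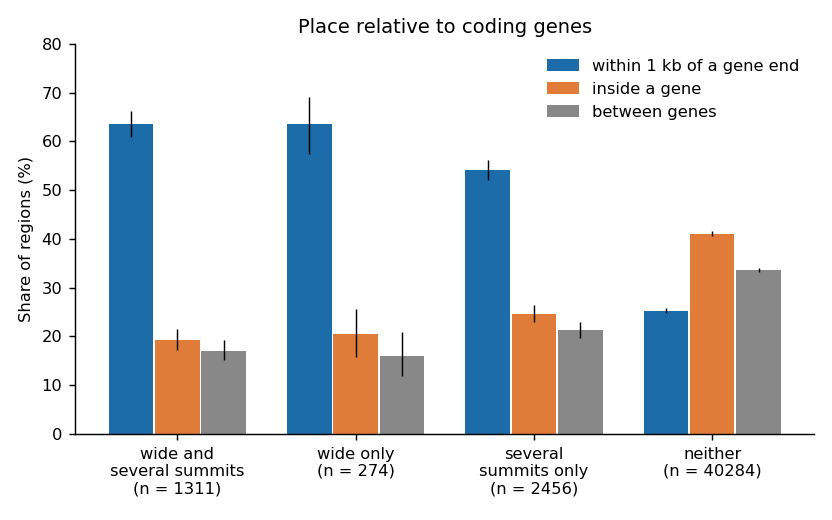
Share of shared regions (%, vertical axis) centred within 1 kb of a coding gene end, inside a gene or between genes, for 4 classes of region by width and summit number; bars are shares and lines are 95% exact binomial intervals. The end share is 63.6% for wide regions with several summits and 25.3% for regions with neither.

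Peak strength moved with width, so place was also read within bands of the score. The score ranks peaks within each list, and the wide regions had a median percentile of 85.7 in replicate 1 and 88.1 in replicate 2. By the smaller of the 2 percentiles, 65.1% of 516 wide regions between the 75th and 90th percentile lay at an end, against 33.5% of 5967 other regions. In the lower part of the lists (percentile 0 to 50) the shares were 49.3% of 67 and 23.5% of 22988. Over the 99th percentile the shares were 26.7% of 30 wide regions and 28.5% of 200 others. The excess at gene ends was thus present in 5 bands from 0 to 100 and not in the top 1% of scores.

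At gene ends the regions lay mostly at starts. On the chromosomes that the RefSeq table of starts covers, 768 of 1277 wide regions (60.1%) were centred within 1 kb of a listed start, against 24.1% of the other shared regions. Of the 814 wide regions at a coding gene end there, 683 (83.9%) were at a start and 12 (1.47%) at the other end, and 119 (14.6%) were at a gene with no listed start. Among other shared regions at an end, the other end took 6.33%. A coding start fell inside 710 of the wide regions. In 91 of these (12.8%, interval 10.4 to 15.5) starts on both strands fell inside, as at divergent gene pairs that share 1 promoter region. The share was 6.91% in other shared regions that held a start. Since a wider region holds more starts by its length, the count was repeated in 500 bp to either side of the centre. There, 105 of 743 wide regions with a start (14.1%, 11.7 to 16.8) had both strands, against 9.31% (8.71 to 9.95) of the others. The share was 10.81% (6.31 to 16.96) in regions that were wide only and 11.02% (9.27 to 12.98) in those with several summits only. Both intervals overlapped that of the wide regions with several summits. A higher share particular to the wide regions with several summits was therefore not shown. Irak4, which shares its region with Pus7l, Myd88 with Acaa1a, and Tln1 with Creb3 were named by 2 genes each.

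Around a single start the summits leaned upstream. In the 575 wide regions that held exactly 1 coding start, the median summit lay at -93 bp in replicate 1 and -89 bp in replicate 2, where minus means before the start. The highest summit had a median of -112 bp and -96 bp and lay before the start in 79.3% and 79.0% of regions. In 52.3% and 51.0% of regions the start lay between summits. From 300 bp before to 50 bp past the start lay 64.8% and 64.1% of summits, and 11.7% and 12.8% lay 150 bp or more past it. Most of these broad peaks thus had maxima on the upstream side, and a smaller number of summits formed a second group inside the transcribed part.

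**Figure D2:**
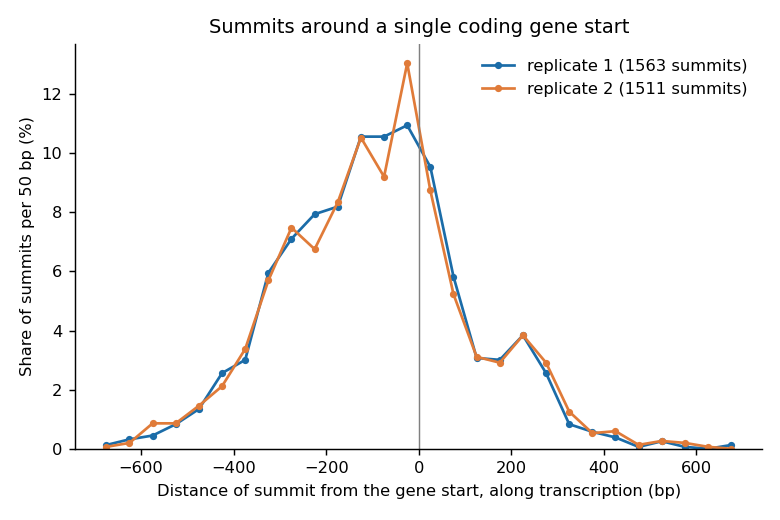
Share of summits per 50 bp (%, vertical axis) by distance from the gene start along transcription (bp), in 575 wide regions with a single coding start, for each replicate. Both replicates peak just before the start and show a smaller rise near 200 bp past it.

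The peaks that met the rule had a median width of 478 bp (400 to 2986) in replicate 1 and 528 bp (400 to 2984) in replicate 2, where the whole lists had medians of 145 and 159 bp. In all, 1029 of the regions had the wider peak in replicate 2, the library with the higher background, and the part of depth in this was not tested. In replicate 1, 595 regions had 2 summits, 534 had 3, 136 had 4 and 49 had 5 or more. In replicate 2 the counts were 681, 457, 133 and 43. The fold enrichment at the highest summit had a median of 8.60 and 8.93, against 7.0 and 6.88 for whole lists, so these regions were broad and only moderately higher than other peaks. Worked out from fold and p, the highest summit held a median of 29 reads in replicate 1 and 43 in replicate 2, and 16 and 22 in all peaks.

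**Figure D3:**
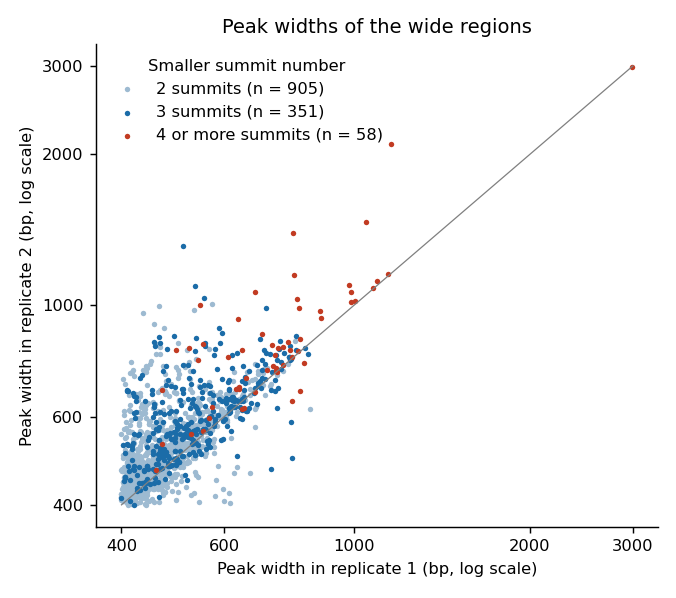
Width of the qualifying peak in replicate 1 (horizontal) and replicate 2 (vertical), in bp on log scales, 1 point per region, coloured by the smaller summit number; the line marks equal widths. Of the 1314 regions, 1029 have the wider peak in replicate 2.

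Summit positions and numbers of both replicates are set side by side here as a description. Neighbouring summits were a median of 155 bp apart in replicate 1 (quartiles 112 and 209) and 175 bp in replicate 2 (126 and 236). A summit of replicate 1 had a summit of replicate 2 a median of 27 bp away, and 69.7% had one within 50 bp. In the reverse direction the values were 26 bp and 71.3%. The highest summit was within 50 bp in both replicates in 56.2% of regions. The same number of summits was called in 597 regions (45.4%), more in replicate 1 in 405 and more in replicate 2 in 312.

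Promoters under wide regions were rich in CG. Over the 300 bases from 250 before to 50 past each start, the 868 promoters in wide regions had a median GC content of 64.3% and 25 CG dinucleotides. The 7081 promoters in other shared regions had 61.3% and 22, and the 13289 in no shared region had 52% and 6. A GC box occurred in 79.4% of promoters in wide regions (76.5 to 82.0), 68.8% in other shared regions, 32.0% outside shared regions and 46.2% of all 21238. Promoters in narrower regions with several summits had 78.6% (76.2 to 80.9) and the same median GC content, and those in regions that were wide only had 71.6% (64.0 to 78.4). The CCAAT box occurred in 54.1% of promoters in wide regions (50.8 to 57.5), in 61.1% of 162 in regions that were wide only (53.1 to 68.7), in 42.6% of 1224 with several summits only (39.8 to 45.4), in 41.1% of other shared regions and in 38.2% of all. For the CCAAT box the interval of regions with several summits only lay below those of both wide classes, whereas for the GC box the intervals of wide-only and several-summits-only regions overlapped. These differences were not tested.

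Other motifs were less frequent or alike. The ETS motif CCGGAAG was in 21.8% of promoters in wide regions and 24.1% in other shared ones, with 11.6% of all promoters. The E box CACGTG was in 10.4% and 11.0% (7.84% of all), and the AP-1 motif TGANTCA in 3.8% and 4.21% (6.99% of all). The TATA box TATAAA was in 3.57% and 5.85% (12.6% of all), the cyclic AMP response element TGACGTCA in 2.76% and 4.38% (2.24% of all), and the PU.1-type motif GAGGAAGT in 2.30% (1.41 to 3.54) and 4.0% (3.55 to 4.48; 3.13% of all). The ISRE core was in 1.38% (0.716 to 2.40) of promoters in wide regions, 3.29% (2.89 to 3.73) in other shared ones and 3.34% of all, so Bst2 belongs to a small group of 12. PU.1 and IRF proteins are factors of myeloid and dendritic cells, and their motifs were less frequent in promoters under wide regions than in other accessible promoters. In regions wide only and with several summits only, the ISRE core was in 1.85% (0.384 to 5.32) and 2.53% (1.73 to 3.58). The PU.1-type motif was in 3.09% (1.01 to 7.06) and 3.68% (2.69 to 4.89). These intervals overlapped those of the wide regions with several summits, so lower shares particular to them were not shown. The part of the higher GC content was not tested. Motifs were searched on both strands, and a match is only a match of letters.

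At the level of genes, 1035 of 21631 coding genes had a wide region within 1 kb of an end (4.78%), and 1270 (5.87%) had one at an end or inside. Among the 10348 genes with any shared region at an end, the same 1035 make 10.0%. The dendritic cell response lists as a whole were near the share of all coding genes, but lower among genes with a shared end region. In the lists of interferon-stimulated genes, nucleic acid sensing, NF-kB, antigen presentation and cytokines together, 7 of 144 had a wide end region (4.86%). Of these genes 112 had some shared end region, of which the 7 make 6.25%, beside 10.0% of all such genes.

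Within these lists the sensing genes had most, with a wide end region at 15.4% of the 26 that had a shared one. Among all coding genes with a shared end region it was 10.0%, and the difference was not tested. Of 33 sensing and interferon receptor genes 4 had a wide region at an end: Myd88, the adaptor of most Toll-like receptors (547 and 508 bp, folds 7.26 and 8.93 in replicates 1 and 2), Irak4 (591 and 621 bp), Map3k7, the kinase TAK1 upstream of NF-kB (495 and 440 bp), and Ifngr1 (674 and 668 bp). Of 25 NF-kB genes, Rel (521 and 715 bp) and Relb (477 and 542 bp), which encodes the NF-kB subunit of dendritic cell maturation, had one. Of 38 interferon-stimulated genes only Bst2 had one at an end (434 and 431 bp), and Oas3, a sensor of double-stranded RNA, had one inside. None of 23 antigen presentation genes had one, of which 21 had a shared end region. None of 26 inflammatory cytokine and chemokine genes had one, of which 16 had a shared end region. By gene symbol, 0 of 88 Cd genes, 0 of 83 interleukin and interleukin receptor genes and 0 of 37 Ccl and Cxcl chemokines had a wide region at an end, with 35, 24 and 9 of them at a shared one. These sets have 9 to 35 genes with a shared end region, and at 10.0% of all such genes they would hold few. These zeros are counts and were not tested.

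Genes of dendritic cell identity were a few single cases. Of 28 cDC1 genes, Itgax and Naaa, a lysosomal amidase (531 and 650 bp), had a wide region at an end, and Cadm1, an adhesion molecule of cDC1, had one inside (506 and 482 bp, folds 9.42 and 9.30). Of 58 haematopoietic transcription factors 4 had one at an end, namely Rel, Relb, Stat3 and Nfat5, and Etv6 and Irf2 had one inside. The Irf2 region (430 and 484 bp) had folds of 12.8 and 14.8. Irf2 encodes a repressor of interferon-stimulated genes. Tln1, the integrin activator talin, had one at an end among 38 actin and adhesion genes, with Vav1, Elmo1 and Myo1f inside. Clec12a and Relb were the 2 of 16 cDC2 markers, and Bst2 the only one of 16 plasmacytoid dendritic cell markers. No marker of B, T or NK cells, macrophages, erythroid cells, hepatocytes, neurons or fibroblasts had one at an end or inside, in lists of 12 to 20 genes; at 5.87% of all coding genes with one at an end or inside, lists of this size hold few or none, so these zeros say little about cell type. Mmp9, in the neutrophil list, had one inside, and of 20 housekeeping genes Rpl13a had one at an end and Ywhaz one inside.

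Families grouped by symbol after values had been seen gave a different picture, with Rab, MAP kinase cascade, Eif and histone-modifying and remodelling genes in front. Of 59 Rab GTPases, the switches that direct vesicles between membranes, 13 had a wide region at an end (22%, beside 4.78% of all genes). They make 29.5% of the 44 Rab genes with any shared end region, beside 10.0% of all such genes. Rab5a and Rab5b, of early endosomes, had peaks of 662 and 738 bp and of 483 and 660 bp. Rab40c had 724 and 832 bp with 5 and 4 summits, and Rab2b 686 and 701 bp with 5 and 3. The others were Rab10, Rab11b, Rab22a, Rab26, Rab2a, Rab33b, Rab39, Rab6a and Rab8a, and Rab20 had a region inside. The Rab6a region is also that of Mrpl48, the Rab2b region that of Tox4, the Rab26 region that of Traf7 and the Rab5b region that of Pmel. Other traffic families were lower, with 3 of 30 sorting nexins (10%) and 2 of 34 Vps genes (5.88%). Among their genes with a shared end region these make 11.5% and 6.45%, beside 10.0% of all such genes. These counts are small, cover only 2 other traffic families and were not tested. Of 43 MAP kinase cascade genes 6 had one (14%), among them Mapk8, the kinase JNK1 (441 and 506 bp), and Map3k12 (611 and 651 bp). Of 55 genes with an Eif symbol 7 had one (12.7%), among them Eif4e, which binds the mRNA cap, Eif5a and the kinase gene Eif2ak3. Of 70 histone-modifying and remodelling genes 8 had one (11.4%), among them Kdm4b, Kmt5c and Setd3.

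Genes used in nearly every cell were not all high. Cytosolic ribosomal protein genes had one in 5 of 83 (6.02%), although 76 had a shared end region, proteasome subunits in 1 of 48 with 44 shared, and mitochondrial ribosomal proteins in 4 of 78 with 71 shared. Of 394 Zfp genes 20 had one (5.08%), of 346 solute carriers 10 (2.89%), and of 1106 olfactory receptors 1. A shared end region was present at 257, 153 and 16 of these genes. None of 92 potassium channel genes, 53 keratins or 39 Hox genes had one. Only 15, 4 and 5 of them had any shared end region, so these zeros say little.

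**Figure D4:**
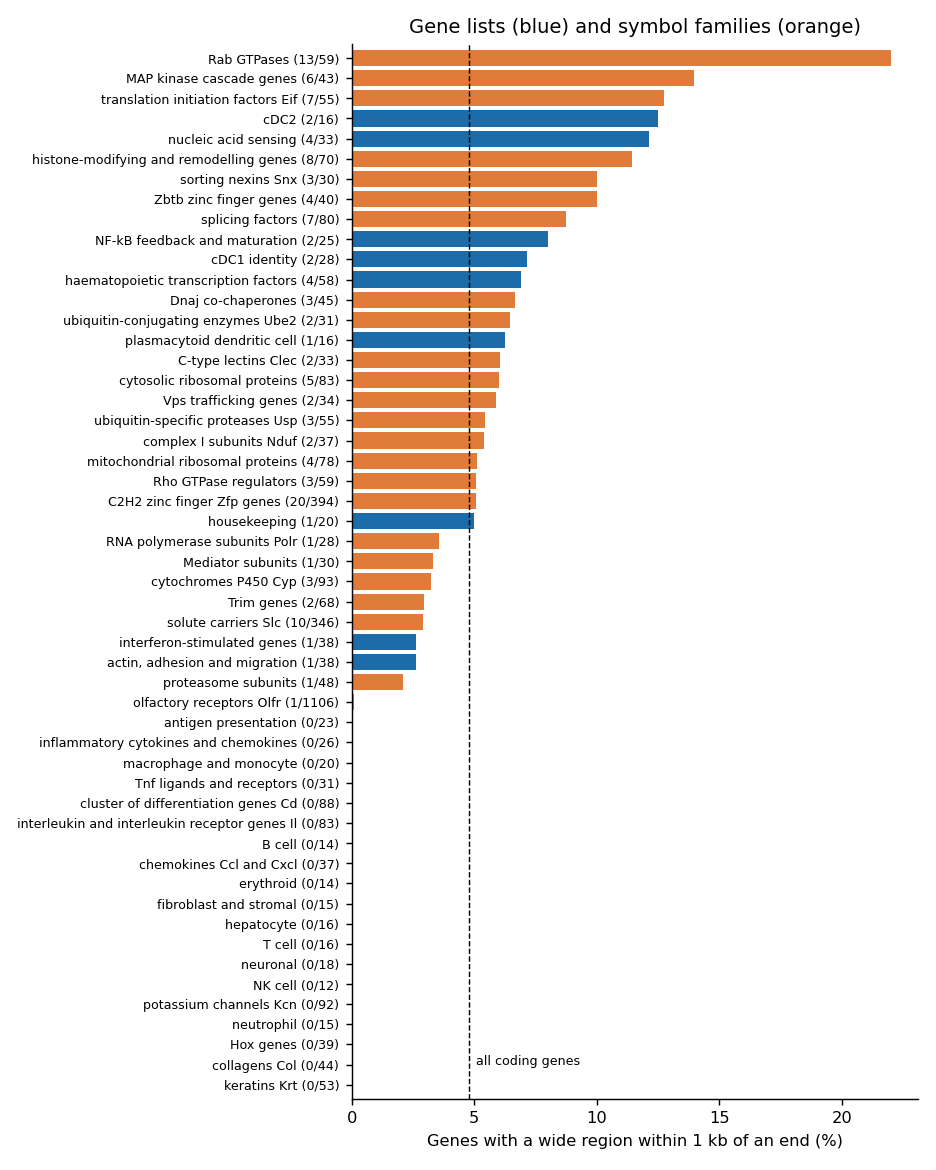
Share of genes (%, horizontal axis) with a wide region within 1 kb of an end, for lists (blue) and symbol families (orange), with counts in brackets; the dashed line is all coding genes, 4.78%. Rab GTPases are at 22%, and antigen presentation, cytokine, Cd and interleukin genes at 0. None of these shares was tested.

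Small nuclear RNA genes, a class looked at after the named regions had been seen, had the largest ratio of the share in wide regions to that in other regions among 6 gene types counted, while lncRNA genes had the largest difference in share. These genes encode the short RNAs of the spliceosome and, in the RefSeq class used here, the U3 RNA of ribosome production. An snRNA gene overlapped 23 of the 1311 wide regions (1.75%, 1.12 to 2.62) and 24 of the 43017 other shared regions (0.0558%). Of the 47 shared regions with an snRNA gene, 23 were thus wide with several summits (48.9%, 34.1 to 63.9), beside 2.96% of all shared regions. RefSeq lists 1003 snRNA genes on the autosomes and X, of which 48 overlapped a shared region and 24 a wide one. tRNA genes overlapped 6 wide regions (0.458%, 0.168 to 0.993) and 0.232% of the others, and lncRNA genes 14.3% and 11.3%. A wider region overlaps more genes by its length, and the part of width in the shares of all these gene types was not tested.

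The summits outside an snRNA gene all lay on the same side of it. Each of the 24 genes had such summits, 23 of them in both replicates, and 0 had them on both sides. Rnu3a had them only in replicate 2, and its 2 summits in replicate 1 were both within the gene. In the other shared regions at snRNA genes, 12 of 24 genes had summits outside the gene, and 0 had them on both sides. With a median of 1 summit in each replicate there, summits on both sides could hardly occur. The middle of the gene was a median of 13.9% of the region's width from the nearer edge in wide regions and 20.3% in the others. Such a place near an edge leaves little room for summits on the other side of the gene. That the summits lay on 1 side is therefore not a result separate from this place. Of 90 distinct summits in replicate 1, 26 lay in an snRNA gene, and of 74 in replicate 2, 19 did. Peaks had median widths of 608 and 765 bp with 4 and 3 summits. The 24 other shared regions at snRNA genes had median widths of 239 and 319.5 bp with 1 summit in each replicate. The table used gives no strand for these genes, so the side could not be called upstream or downstream.

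**Figure D5:**
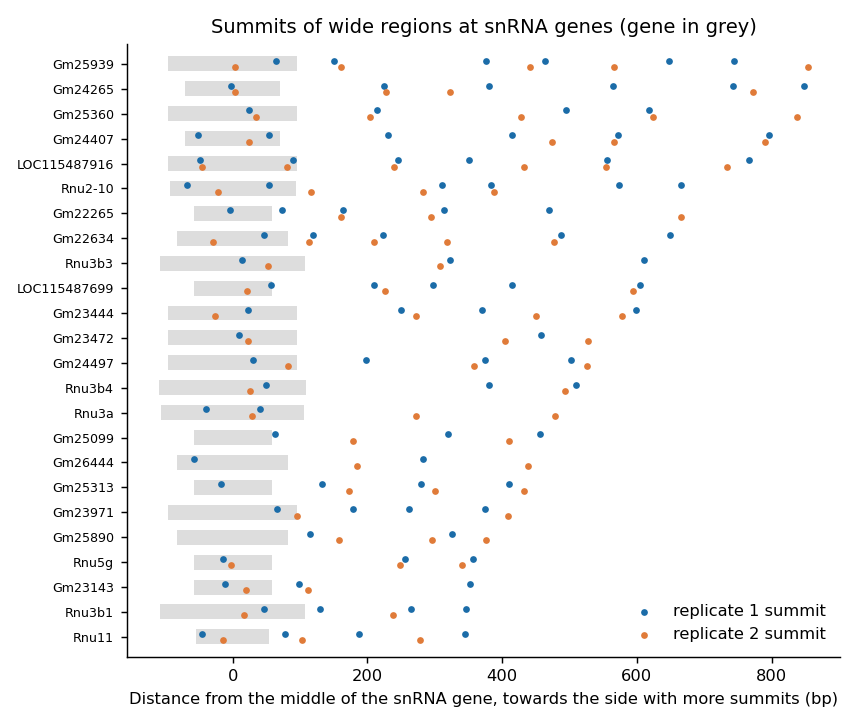
Summits of wide regions at 24 snRNA genes by distance from the middle of the gene (bp), each gene turned so that the side with more summits is to the right; grey bars are genes, blue and orange points the summits of replicates 1 and 2. In all 24 genes the summits outside the gene lie on the same side; Gm24265 and Gm24407 share a region, whose summits are drawn for each.

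The named snRNA genes were Rnu11, of the minor spliceosome, Rnu5g (U5), Rnu2-10 (U2), and the U3 genes Rnu3a, Rnu3b1, Rnu3b3 and Rnu3b4. The region at Rnu2-10 (chr11:101658231-101659051) had 6 and 4 summits over 821 and 766 bp, with folds of 7.97 and 7.73 in replicates 1 and 2. The regions of Rnu3b1, Rnu3b3 and Rnu3b4 lie inside the coding gene Tex14. They made Tex14 1 of the 2 genes with most wide regions at an end or inside, 3 each. The fourth U3 gene there, Rnu3b2, had a narrower shared region of 344 and 371 bp with 1 summit. Genes of this class have near-identical copies, reads of which are hard to place, and no source used here says how reads with several matches were treated.

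Wide regions seldom lay next to each other, with a median gap of 727.6 kb and 8 gaps under 5 kb. With gaps of up to 12.5 kb joined, 55 regions fell into 26 chains. The longest held 4 regions (chr1:72226210-72256001), between Mreg and Pecr, and each of the 4 overlapped an snRNA gene of 191 bases (Gm25360, Gm23472, Gm24497 and Gm25939). Their peaks were 700 to 1003 bp wide in replicate 1 and 765 to 1148 bp in replicate 2, with folds from 7.03 to 8.45 and from 7.24 to 9.19. Counting only regions at an end of a gene or inside it, 29 genes were named by 2 or more wide regions and 1223 by 1. Regions named only by the nearest gene are left out of these counts. Besides Tex14, Aldh3b1, an aldehyde dehydrogenase, had 3, at both its ends and inside, with folds from 4.69 to 8.06. At Arf2, a GTPase of vesicle coats, both ends had one, with folds of 8.47 and 9.02 at one and of 10.6 and 10.9 at the other. At Sp4, a GC box factor, 2 regions lay 188 bp apart at the same end.

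The regions with the most summits and the widest ones were of several kinds. The widest (chr1:24613157-24616142) spanned 2986 and 2984 bp with 15 and 12 summits but folds of only 2.41 and 2.33, overlaps the annotated gene Gm10925, and lies 25235 bp from the nearest coding gene end, that of Col19a1. Its neighbour 434 bp away had folds of 2.29 and 2.27. The mitochondrial genome held 2 regions, with folds of 1.92 and 1.93 and of 1.91 and 1.87. At Zfp113 a region inside the gene (chr5:138149123-138150245) had 8 and 6 summits over 1094 and 1119 bp with folds of 7.54 and 6.99. At Acsf3, a mitochondrial acyl-CoA synthetase gene, a region inside had 6 and 7 summits over 787 and 1391 bp.

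Wide regions at ends among the largest were those of Mon1b, an endosome maturation factor (989 and 1064 bp, folds 9.08 and 8.56), Sp1, the founding GC box factor (987 and 1014 bp, folds 6.69 and 6.81), Zbtb20, a zinc finger repressor (878 and 943 bp, folds 7.56 and 7.55), and Prss57 (740 and 821 bp, folds 8.29 and 8.17). The regions near Sirt4 (981 and 1096 bp), Rdm1 (798 and 1030 bp) and Pecr (1003 and 1021 bp) each overlap snRNA genes. Rab20 had a region inside of 876 and 973 bp with 4 and 5 summits. Another group scored high and lay far from gene ends. The region inside Mdga2, 162622 bp from its end, had 6 summits in each replicate and folds of 18.2 and 15.4. The region 170691 bp from Samd9l also had 6 in each, with folds of 15.0 and 14. A pair of regions had Lrrc4c as the nearest coding gene, more than 1 Mb away. Their folds were only 5.44 and 5.18 and 4.89 and 4.81, yet both stood above the 99th percentile of the score in each replicate. The region nearest to Tcte2 had 5 and 6 summits over 678 and 1061 bp.

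The width limit cut through a continuum. By the smaller of both widths, 106 regions with several summits measured 400 to 409 bp and 105 measured 390 to 399 bp. Just inside were the regions of N6amt1, Chst12 and 9430015G10Rik at 400 bp, with folds of 12.2 and 12.1, 8.31 and 8.77, and 9.05 and 10.9. Just outside were those of Tasor2, Slc35f5 and Ncapg2 at 399 bp, with folds of 12 and 10.1, 9.72 and 8.63, and 7.99 and 9.44.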

How the data were processed

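ATAC-seq peak lists of 2 replicates of unstimulated cells were used. Tools named without a role, per the submitters' processing notes, are MACS2, HOMER 4.9.1, Picard 2.8.1, BWA 0.7.17 and Trimmomatic, with build mm10. Read shifting, duplicate and multi-mapped read handling are not given in the sources used here, and can change widths and summits. The deposited files hold 1 entry per summit, called per sample, with a score (10 times the −log10 q, as a whole number), a fold enrichment (a ratio with 1 added to reads and background) and −log10 p and q values, all the authors'. Reads at summits were worked out from fold and p; the p came back within 0.002 for 100% of summits. Entries with the same ends were joined to 1 peak, and peaks overlapping by 1 bp or more were merged. Genes and promoters came from RefSeq GRCm38.p6 (32851 starts of 27025 genes; 17492 of 21900 coding genes have one). Of 464 listed names, 461 matched. Regions were named by each coding gene with an end within 1 kb, else the gene around the centre, else the nearest. Named were the 12 with most summits, the 12 widest and the 10 genes with most regions at an end or inside. Up to 6 genes per list and 3 regions on each side of the width limit were also named. The members and lists were chosen with earlier results of these data known; families, the snRNA class and printed promoters were chosen after values were seen. Intervals are exact binomial (95%). With 1 group of 2 samples no test was made. Python 3.11.15, numpy 2.4.6, scipy 1.17.1, pandas 2.3.3 and matplotlib 3.10.9 were used, and the merging, rule and read recovery were tested on simulated data.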

Additional observations from a re-analysis of the deposited data

How the results depend on the processing

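The number of regions follows the limits of the rule: it was 1314 as given, 2555 with a width of 300 bp or more, 177 with 600 bp and 409 with 3 or more summits, and ran from 1653 to 3185 when either replicate was left out, 3185 being the value without replicate 1. Genes with a wide region at an end were 1035 as given, 1917 at 300 bp, 142 at 600 bp, 343 with 3 summits, and 1291 to 2320 with a replicate left out, 2320 without replicate 1. The share at a coding gene end moved less: 63.6% as given, 58.4% with a window of 500 bp, 68.0% with 2000 bp, 70.3% for ends of all annotated genes, 60.1% for listed starts only, and 59.7% to 63.3% with a replicate left out. For other shared regions the share was 21.9% with 500 bp, 32.7% with 2000 bp and 32.3% for all annotated genes, below the wide regions in each of these settings. Without the mitochondrial genome and folds under 3, an alternative chosen after seeing the data, 1308 regions were left, 63.8% of them at an end. Keeping the better-scoring 50% of each list, an overlap of 50% between the qualifying peaks and counting any part of a region gave values close to those reported. No listed summit had under 7 reads in replicate 1 or under 9 in replicate 2, so summits with fewer reads could not be seen. No paired analysis was possible because the only group with files is 1 group of 2 replicates.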

Other observations

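The wide regions were spread unevenly over chromosomes as a share of shared regions. Chromosome X had the lowest share, 10 of 765 (1.31%, 95% exact binomial interval 0.629 to 2.39), followed by chromosome 2 at 1.99% and chromosome 4 at 2.04%. Chromosome 8 had the highest, 109 of 2794 (3.90%, 3.21 to 4.69), with chromosome 5 at 3.82% and chromosome 17 at 3.73%. On chromosome X, 40% of the 10 lay at a coding gene end, against 34.7% of the other shared regions there, the nearest approach of both shares on any chromosome.

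Among the highest-scoring wide regions, picked after their values were seen, most were not at a gene end. Of the 30 over the 99th percentile in both replicates, 8 were named by a gene end, 10 lay inside a gene and 12 between genes. The region nearest to Pex2, 281743 bp away, ranked first by the smaller of its percentiles, with folds of 23.1 and 21.7 in replicates 1 and 2 over 508 and 514 bp. The region nearest to Axin2 had folds of 22.2 and 20.5, and the region inside Apool had 19.1 and 18.6. Of the 220 wide regions named by the nearest gene, the median distance to its end was 19990 bp, and 36 were over 100 kb away.

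A small set of 6 wide regions had folds under 3 in both replicates. They are the 2 on the mitochondrial genome, 2 nearest to Col19a1, which include the widest of all, and 2 nearest to Esp38. The Esp38 pair had folds of 2.35 and 2.20 and of 2.01 and 1.94. These 2 lie 106159 and 102463 bp from the end of Esp38, and the second overlaps the annotated gene Rn18s-rs5. At Esp38 the first region had 3 summits over 509 bp in replicate 1 and 8 over 1312 bp in replicate 2.

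Overlap with miRNA genes was rare, with Mir8109 in a region near Neto2 (471 bp in each replicate, folds 9.15 and 7.30) and Mir5133 in a region near Glce (452 and 575 bp, folds 10.8 and 10.6). The small nucleolar RNA genes Snord49b and Snora24 lay in 1 region each, the latter with 4 and 5 summits over 632 and 938 bp.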
